A study of Mus musculus with 5 samples.

Results

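Transcripts of 9 genes were followed in the tumor-bearing hemisphere of GL261 mice: the myeloid receptor genes Cd300a, Cd300c2, Cd300lb, Cd300ld and Cd300lf, the leukocyte immunoglobulin-like and paired receptor genes Lilrb4a and Pirb, the receptor gene Sirpa and the gene of its ligand, Cd47. They were taken as a list of names, a set of immune receptors and a ligand, and the rule itself uses no measured value, although earlier results of these data were known when the list was made. All 9 were among the 55573 genes of the files, and all 9 were among the 23592 genes with enough reads to be tested. GL261 is a mouse glioma line, here carrying luciferase and mKate2, that was placed in the right caudate-putamen of C57BL/6 female mice aged 7 to 8 weeks. Both groups carried this tumor. The vehicle group (3 libraries, 1 for each mouse) received antibody dilution buffer, and the UMBO group (2 libraries) received low-intensity pulsed ultrasound together with intravenous microbubbles, which opens the blood–brain barrier for a time. Sessions took place on days 21 and 24, and the right hemisphere was taken 24 h after the last one. A library therefore pools tumor, brain, vessel and immune cells of a hemisphere, and in such bulk RNA fewer cells of a type and less RNA per cell cannot be told apart. Whether the vehicle mice were given microbubbles or a sham session is not given in the sources used here.

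CD300, LILR/PIR and SIRP receptors are surface proteins of the immunoglobulin superfamily that set how strongly a myeloid cell answers to what it touches. Inhibitory members carry tyrosine motifs in their tails that recruit the phosphatases SHP-1, SHP-2 and SHIP-1, whereas activating members have short tails and signal through the adaptor proteins DAP12 or the Fc receptor gamma chain. CD300 receptors recognise lipids that are exposed on dying cells, PIR-B binds MHC class I and myelin proteins, and SIRP-alpha binds CD47, the "do not eat me" signal of most cells. In the brain, microglia and infiltrating monocytes and macrophages carry these receptors, while SIRP-alpha and CD47 are also abundant on neurons.

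The starts of these genes were of different kinds. RefSeq promoters on GRCm38.p6 (250 bases before the transcript start and 50 after it) matched 7 of the 9 genes, and Sirpa and Lilrb4a were not matched. The GC content was 45.3% to 54.7% in the 6 receptor promoters, with 1 to 6 CpG, and 74% in the first of the Cd47 promoters, with 35 CpG. The sequence GAGGAAGT, the core of sites bound by the myeloid factor PU.1, was searched on both strands and stood in the promoters of Cd300ld, Cd300lf and Pirb. Of the 32851 promoters of the reference, 3.2% held it. It was not in the windows of Cd300a, Cd300c2, Cd300lb and Cd47. The shorter GGAAGT, which is contained in it, stood in 23.8% of all promoters. The first 280 bases of the windows with the longer match are printed here 5′ to 3′ on the gene's strand, with that match in capitals, and the Cd47 window is shown as the CpG-rich contrast. A match is only a match of letters, and no binding was measured.
Cd300ld, chr11:114989857-114990136, minus strand: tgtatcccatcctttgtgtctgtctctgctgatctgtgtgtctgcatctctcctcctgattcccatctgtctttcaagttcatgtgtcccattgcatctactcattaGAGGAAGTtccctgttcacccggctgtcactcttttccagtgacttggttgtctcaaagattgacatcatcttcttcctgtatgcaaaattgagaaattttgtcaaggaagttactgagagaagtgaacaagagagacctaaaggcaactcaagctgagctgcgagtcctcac
Cd300lf, chr11:115133963-115134242, minus strand: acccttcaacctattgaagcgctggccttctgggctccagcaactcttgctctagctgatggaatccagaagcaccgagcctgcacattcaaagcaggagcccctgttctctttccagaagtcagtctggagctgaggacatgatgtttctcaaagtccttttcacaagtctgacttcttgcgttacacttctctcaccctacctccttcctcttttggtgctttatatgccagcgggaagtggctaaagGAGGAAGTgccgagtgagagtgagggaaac
Pirb, chr7:3720353-3720632, minus strand: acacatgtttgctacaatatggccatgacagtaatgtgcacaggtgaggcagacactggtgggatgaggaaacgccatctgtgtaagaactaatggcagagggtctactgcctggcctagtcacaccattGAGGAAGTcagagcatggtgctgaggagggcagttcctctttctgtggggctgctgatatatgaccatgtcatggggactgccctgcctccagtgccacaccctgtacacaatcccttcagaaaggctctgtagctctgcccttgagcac
Cd47, chr16:49855404-49855683, plus strand: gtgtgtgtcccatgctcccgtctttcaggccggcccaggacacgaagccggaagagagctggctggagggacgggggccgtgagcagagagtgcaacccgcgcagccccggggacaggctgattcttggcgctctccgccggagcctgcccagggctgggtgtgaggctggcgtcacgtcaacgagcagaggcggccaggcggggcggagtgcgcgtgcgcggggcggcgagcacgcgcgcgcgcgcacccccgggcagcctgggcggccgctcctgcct
The match began 143 bases before the transcript start in Cd300ld and 120 bases before it in Pirb. In Cd300lf it began at 0, the start itself. The same letters stood in the promoters of the relatives Cd300ld3, Cd300ld4, Cd300ld5, Pira1, Pira2 and Lilra6, and not in those of Cd300c, Cd300e, Lilra5, Lilr4b, Sirpb1a, Sirpb1b and Sirpb1c.

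Library totals lay between 59736771 and 86164159 counted reads, so that counting error is small for all members except Cd300lb and Cd300ld. Values are CPM, read counts scaled to a common library size after TMM normalization, and fold changes and p-values are from the quasi-likelihood test of edgeR across all 23592 genes. No gene passed an adjusted p under 0.05 (Benjamini-Hochberg, 0%). An unadjusted p under 0.05 was found for 1738 genes (7.37%), with 1251 higher after UMBO (5.3%) and 487 lower (2.06%). The DESeq2 Wald test called 40 genes at an adjusted p under 0.05 (0.179%). The UMBO libraries were both above the whole vehicle range in 11.5% of all genes and both below it in 11.4%. Within a group, pairs of libraries had a chi-square per gene of 65.6 to 413, far above counting error. UMBO replicate 2 stood apart from UMBO replicate 1 in the values that follow, so the fold change of each member is also given without it.

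The 7 receptors other than Sirpa all had positive fold changes, with a median of 1.98 on the log2 scale, whereas those of Sirpa and Cd47 were slightly under 0. The 7 values ranged from 1.49 (Lilrb4a) to 2.55 (Cd300ld). Cd300lb had enough reads for testing mainly through the UMBO libraries, so its sign and its part in this median are no support. The median over all genes tested was 0.01, and 50.9% of them had a positive fold change. Of the 9 members, 4 (Cd300a, Cd300c2, Cd300lb and Cd300ld) had an unadjusted p under 0.05, all higher, beside 5.3% of all genes. None of the 9 passed the adjusted threshold with edgeR or with DESeq2, which gave an unadjusted p under 0.05 for 7 of them beside 6.77% of all genes. For 3 of the 9 (Cd300a, Cd300c2 and Cd300lb) the UMBO libraries were both above the vehicle range, beside 11.5% of all genes. The adjusted p of edgeR was 0.497 for each of the 7 receptors, 0.731 for Sirpa and 0.661 for Cd47.

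**Figure D1:**
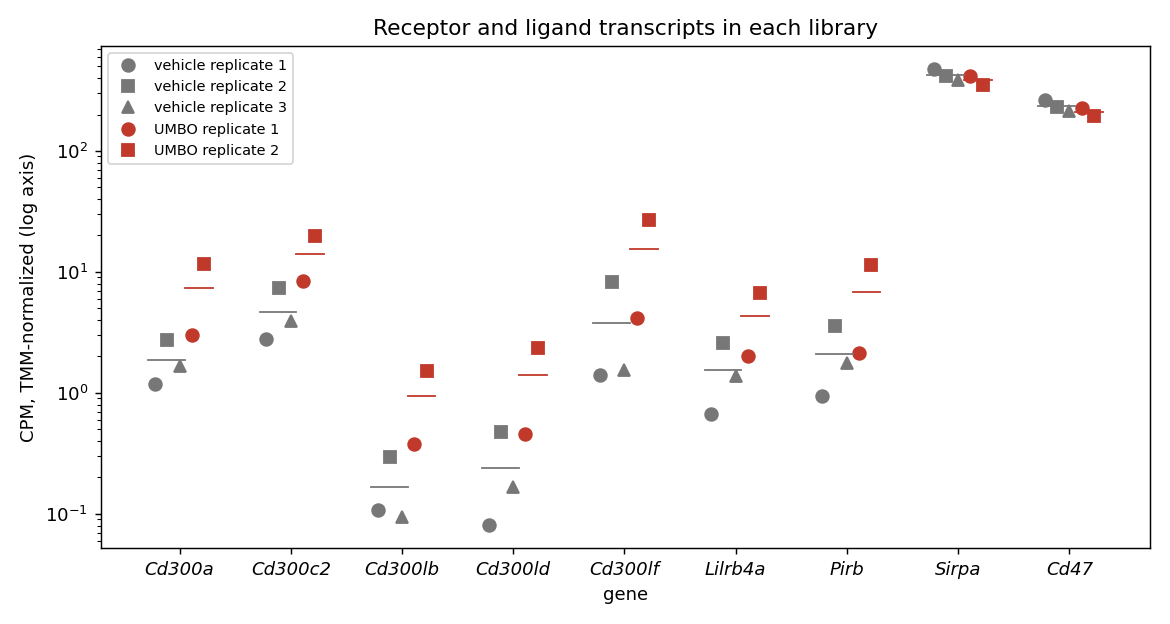
TMM-normalized CPM (log axis) of the 9 genes in each of the 5 libraries, with 3 vehicle libraries in grey, 2 UMBO libraries in red and a line at each group mean. UMBO replicate 2 is the highest point for each of the 7 receptors from Cd300a to Pirb and the lowest for Sirpa and Cd47, and UMBO replicate 1 lies just above vehicle replicate 2 for Cd300a, Cd300c2 and Cd300lb and below it for Cd300ld, Cd300lf, Lilrb4a and Pirb.

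Among the inhibitory receptors, Cd300a (chr11:114890041-114904654, plus strand), which binds phosphatidylserine and phosphatidylethanolamine, was at 1.19, 2.74 and 1.67 CPM in vehicle replicates 1 to 3 and at 2.99 and 11.7 CPM in UMBO replicates 1 and 2. Both UMBO libraries lay above the vehicle range, the first of them by a small margin over vehicle replicate 2. The mean was 1.87 ± 0.796 CPM (SD, n = 3) with vehicle and 7.35 ± 6.16 CPM (SD, n = 2) with UMBO, and the fitted log2 fold change was 1.98 (SE 0.638, edgeR unadjusted p = 0.0213). Without UMBO replicate 2 it was 0.68.

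Cd300lf (chr11:115116214-115133992, minus strand), an inhibitory receptor for ceramide and phosphatidylserine, was at 1.40, 8.32 and 1.55 CPM in the vehicle libraries and at 4.15 and 26.9 CPM in the UMBO libraries. Here the groups overlapped, since vehicle replicate 2 was higher than UMBO replicate 1, and the vehicle libraries alone spread 5.93-fold. The log2 fold change was 2.05 (SE 1.04, edgeR unadjusted p = 0.0970), and it was 0.15 without UMBO replicate 2.

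Pirb (chr7:3711409-3720391, minus strand), the inhibitory receptor for MHC class I and for the myelin proteins Nogo, MAG and OMgp, was at 0.949, 3.55 and 1.76 CPM with vehicle and at 2.15 and 11.4 CPM with UMBO. UMBO replicate 1 lay inside the vehicle range, at 1.03 times the vehicle mean, and UMBO replicate 2 at 5.49 times. The log2 fold change of 1.70 (SE 0.808, edgeR unadjusted p = 0.0797) was 0.05 without UMBO replicate 2. Lilrb4a (chr10:51490956-51496611, plus strand), the inhibitory receptor gp49B, was at 0.669, 2.60 and 1.38 CPM with vehicle and at 2.04 and 6.66 CPM with UMBO. It showed the same overlap, with vehicle replicate 2 above UMBO replicate 1. Its log2 fold change was 1.49 (SE 0.704, edgeR unadjusted p = 0.0793), and 0.39 without UMBO replicate 2. In the annotation 1846 exon bases of Lilrb4a are shared with the readthrough gene Gm49339, which had 0 reads in every library, and 131 with the antisense gene Gm40645, with 0 to 6 reads. Reads in shared bases may go uncounted, so the level of Lilrb4a is uncertain.

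Among the activating receptors, Cd300c2 (chr11:114996721-115001880, minus strand), which signals through adaptor proteins, was at 2.77, 7.30 and 3.92 CPM with vehicle and at 8.35 and 19.9 CPM with UMBO. The groups did not overlap, although UMBO replicate 1 was only slightly above vehicle replicate 2. The mean was 4.66 ± 2.35 CPM (SD, n = 3) against 14.1 ± 8.16 CPM (SD, n = 2), with a log2 fold change of 1.60 (SE 0.530, edgeR unadjusted p = 0.0236) that was 0.84 without UMBO replicate 2.

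Cd300lb (chr11:114922781-114934386, minus strand), a DAP12-coupled receptor, was the rarest member, with 8, 20 and 8 reads in the vehicle libraries and 32 and 99 reads in the UMBO libraries. In CPM these were 0.107, 0.297 and 0.0945 against 0.374 and 1.51, with no overlap between the groups. The log2 fold change was 2.50 (SE 0.777, edgeR unadjusted p = 0.0181), and 1.19 without UMBO replicate 2. Only 1 of the 3 vehicle libraries, but both UMBO libraries, reached the read number that the filter on low counts asks for, so the gene entered the test mainly through the group in which it was higher and its place in the counts above is no support for them. Without it these counts are 3 of 8 members at an unadjusted p under 0.05, beside 5.3% of all genes higher at that p. For members not overlapping the count is 2 of 8, beside 11.5% of all genes. Cd300ld (chr11:114982274-114989922, minus strand), a receptor coupled to the Fc receptor gamma chain, had 6, 32 and 14 reads with vehicle and 39 and 154 reads with UMBO. In CPM, UMBO replicate 1 (0.456) was just under vehicle replicate 2 (0.475), and the others were 0.0802 and 0.165 with vehicle and 2.35 with UMBO. Its log2 fold change of 2.55 (SE 0.927, edgeR unadjusted p = 0.0334) was 0.94 without UMBO replicate 2.

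UMBO replicate 2 was 2.38 (Cd300c2) to 6.49 (Cd300lf) times as high as UMBO replicate 1 in the 7 receptors, and the highest vehicle library was 2.31 (Cd300a) to 5.93 (Cd300lf) times as high as the lowest. The calls moved with the libraries included. Without UMBO replicate 2 none of the 9 members had an unadjusted p under 0.05 (1.86% of all genes did), and the median over the 7 receptors was 0.68. The count was also 0 without vehicle replicate 1 (1.28% of all genes) and without vehicle replicate 3 (1.88%). Without vehicle replicate 2 it was 7, beside 11.6% of all genes. Without UMBO replicate 1, where the lone UMBO library is assumed to vary as the vehicle libraries do, 5 members (Cd300a, Cd300c2, Cd300lb, Cd300ld and Pirb) passed an adjusted p under 0.05, beside 18.3% of all genes. The 7 receptors kept a positive fold change in each of these 5 fits, with the limit given above for Cd300lb.

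**Figure D2:**
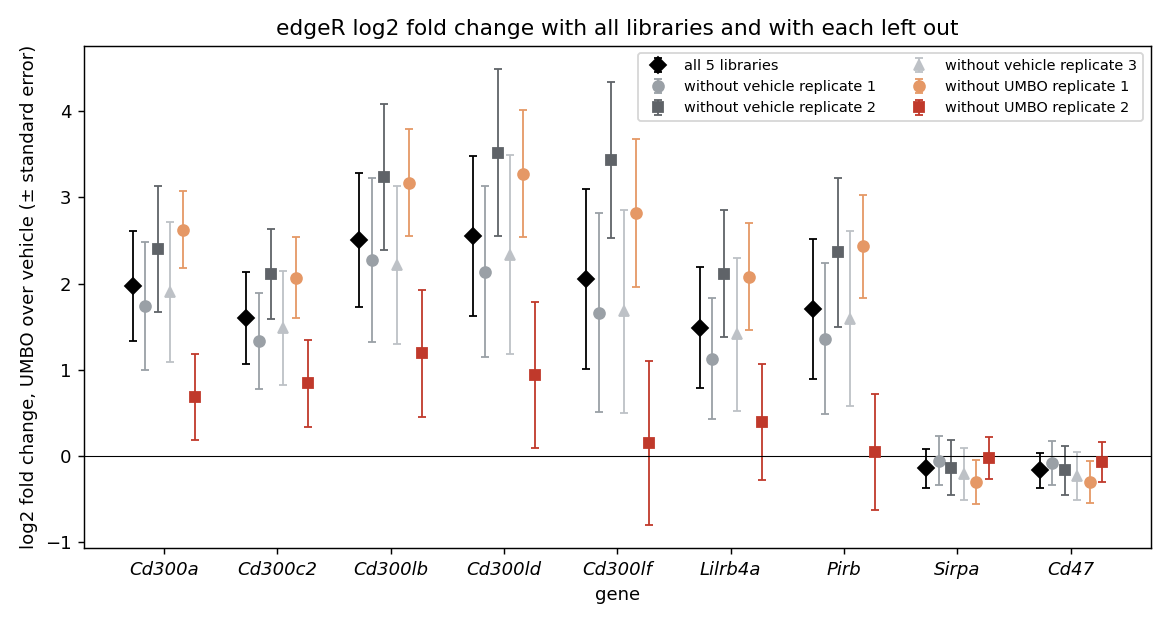
Log2 fold change of UMBO over vehicle from edgeR (± standard error) for the 9 genes with all 5 libraries and with each library left out in turn. Without UMBO replicate 2 the values of Cd300lf (0.15) and Pirb (0.05) are near 0, and Sirpa and Cd47 stay between -0.30 and -0.03 throughout.

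Sirpa (chr2:129592835-129632228, plus strand), the inhibitory receptor for CD47, was at 478, 415 and 385 CPM in the vehicle libraries and at 418 and 352 CPM in the UMBO libraries. Vehicle replicate 1 was the highest and UMBO replicate 2 the lowest library, and the groups overlapped. The mean was 426 ± 47.1 CPM (SD, n = 3) against 385 ± 46.4 CPM (SD, n = 2), with a log2 fold change of -0.15 (SE 0.227, edgeR unadjusted p = 0.543). Cd47 (chr16:49800533-49915010, plus strand) was at 266, 229 and 216 CPM with vehicle and at 225 and 196 CPM with UMBO. Its libraries stood in the same order as those of Sirpa except that vehicle replicate 2 was above UMBO replicate 1, and its log2 fold change was -0.17 (SE 0.207, edgeR unadjusted p = 0.445). Without UMBO replicate 2 the log2 fold change was -0.03 for Sirpa and -0.07 for Cd47. Both genes spread little, 1.24-fold (Sirpa) and 1.23-fold (Cd47) among the vehicle libraries.

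Receptor and ligand kept a nearly fixed proportion. Per kilobase of exon, Sirpa was at 2.30, 2.32 and 2.28 times the level of Cd47 in the vehicle libraries and at 2.37 and 2.30 times with UMBO. In log2 units the UMBO mean of this ratio minus the vehicle mean was 0.02 (2-sided exact permutation p = 0.5). With 10 groupings of the 5 libraries such a test cannot give a p below 0.1.

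Levels can be compared between genes only per length. Per kilobase of exon the vehicle mean was 86.8 ± 9.59 CPM for Sirpa and 37.7 ± 4.13 for Cd47 (SD, n = 3), then 3.66 ± 1.85 for Cd300c2. Cd300lf (0.730 ± 0.768 CPM per kilobase), Pirb (0.466 ± 0.297), Cd300a (0.394 ± 0.168) and Lilrb4a (0.296 ± 0.186) followed, and the SD ranges of neighbours in this order overlapped. Library by library, Cd300a was above Lilrb4a in each, while Cd300lf, Pirb and Cd300a changed places. Cd300ld (0.0908 ± 0.0785) and Cd300lb (0.0569 ± 0.0388) were lowest, with overlapping SD ranges, and Cd300lb was the higher of these in vehicle replicate 1 only. The activating Cd300c2 was thus above each inhibitory receptor other than Sirpa per length. As a description chosen after the values were seen, log2 of the summed inhibitory receptors (Cd300a, Cd300lf, Lilrb4a, Pirb) over the summed activating ones (Cd300c2, Cd300lb, Cd300ld), per kilobase, was -1.37, -0.79 and -1.28 with vehicle and -1.57 and -0.56 with UMBO. The UMBO libraries lay at either end of the vehicle range.

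The 5 CD300 members lie within 244 kb of chromosome 11 (114890041 to 115133992 on GRCm38), together with 8 other annotated genes. Of those 8, only Cd300e, an activating receptor of monocytes, had enough reads to be tested. It was at 0.120 to 0.237 CPM with vehicle and at 0.293 and 0.122 CPM with UMBO, with a log2 fold change of 0.14 (SE 0.559, edgeR unadjusted p = 0.805). Its sign turned without vehicle replicate 1 (-0.10) and without UMBO replicate 1 (-0.66). Cd300c, between Cd300lb and Cd300ld, had 2 to 4 reads with vehicle and 2 and 14 with UMBO, and Cd300ld2 to Cd300ld5 had 0 to 5 reads in any library. The only other listed CD300 gene tested, Cd300lg on another part of the chromosome, a receptor of vessel cells, had a log2 fold change of 0.54 (SE 0.460, edgeR unadjusted p = 0.285). Neither of the 2 tested relatives had an unadjusted p under 0.05.

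Of 10 other LILR and PIR genes listed, 4 were found in the annotation and 2 were tested. Lilr4b, a close relative of Lilrb4a without inhibitory motifs that is also called gp49A, was at 0.642, 3.09 and 0.685 CPM with vehicle and at 1.66 and 17.2 CPM with UMBO, and its log2 fold change of 2.68 had an edgeR unadjusted p of 0.0508. Again vehicle replicate 2 was above UMBO replicate 1, and without UMBO replicate 2 the value was 0.18. Lilra5 had no overlap between groups (0.254 to 0.508 against 0.562 and 1.16 CPM, log2 fold change 1.23, edgeR unadjusted p = 0.0466). These genes and Pirb belong to families of near-identical copies, and reads could be split or lost between copies in ways that the deposited counts do not show. Among the listed activating SIRP genes, Sirpb1c was at 0.0134, 0.386 and 0.106 CPM with vehicle and at 0.468 and 2.32 CPM with UMBO (log2 fold change 3.06, edgeR unadjusted p = 0.0365), and Sirpb1a had a log2 fold change of 1.96 (edgeR unadjusted p = 0.0828). For both genes only 1 of the 3 vehicle libraries, but both UMBO libraries, reached the read number of the filter, so they entered the test mainly through the group in which they were higher and their fold changes and p-values are given as values only. Sirpb1b had too few reads to be tested.

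The adaptors of the activating receptors had positive fold changes, of 1.32 to 1.89 on the log2 scale. Tyrobp, which encodes DAP12, was at 10.6, 34.3 and 14.4 CPM with vehicle and at 35.6 and 102 CPM with UMBO, with a log2 fold change of 1.80 (SE 0.626, edgeR unadjusted p = 0.0281). Fcer1g, the Fc receptor gamma chain, was at 8.30, 28.9 and 11.7 CPM against 22.0 and 98.4 CPM, with a log2 fold change of 1.89 (SE 0.748, edgeR unadjusted p = 0.0452). In Fcer1g vehicle replicate 2 was above UMBO replicate 1, and in Tyrobp the groups did not overlap. Hcst, which encodes DAP10, had a log2 fold change of 1.32 (edgeR unadjusted p = 0.0600). The values were 0.85 for Tyrobp, 0.43 for Fcer1g and 0.27 for Hcst without UMBO replicate 2. None of the 3 passed the adjusted threshold, and 2 of 3 had an unadjusted p under 0.05, beside 5.3% of all genes.

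All 8 listed kinases and activating effectors had positive fold changes with a median of 1.31 on the log2 scale, and 5 had an unadjusted p under 0.05. Over all genes, 50.9% had a positive fold change and 5.3% were higher at that p. Lyn, a Src-family kinase that phosphorylates the motifs of both kinds of receptor, had the smallest p (log2 fold change 1.18, SE 0.349, edgeR unadjusted p = 0.0146), followed by the exchange factor Vav1 (1.43) and the adaptor Lat2 (1.88). Of the 6 inhibitory phosphatases and brakes, 5 had positive fold changes, with a median of 0.77. Beside the same 5.3% of all genes, 2 of the 6 had an unadjusted p under 0.05. These were Inpp5d, which encodes SHIP-1 (0.77, SE 0.257, edgeR unadjusted p = 0.0245), and Ptpn6, which encodes SHP-1 (1.57, SE 0.594, edgeR unadjusted p = 0.0386). The adaptor Dok1 was next at 1.31. The exception in sign was Ptpn11, which encodes the widely expressed SHP-2, at -0.33 (edgeR unadjusted p = 0.229), an outcome named here after its value was seen.

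Of the ligands and partners of the receptors 14 were tested, and 10 had positive and 4 negative fold changes, with a median of 0.28. The 4 were Omg (-0.51), Rtn4 (-0.41), which encodes Nogo, Itgav (-0.21) and Mag (-0.04). For Omg and Rtn4 both UMBO libraries lay below the vehicle range, beside 11.4% of all genes. None of the 14 had an unadjusted p under 0.05. Of the 15 listed, Havcr1 had too few reads to be tested. The smallest p belonged to Il4ra (log2 fold change 1.18, edgeR unadjusted p = 0.0527), the interleukin-4 receptor chain with which CD300f associates, then Thbs1, a ligand of CD47 (1.12), and Fn1, fibronectin (0.46). The value of Thbs1 rested on UMBO replicate 2 and was -0.12 without it.

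**Figure D3:**
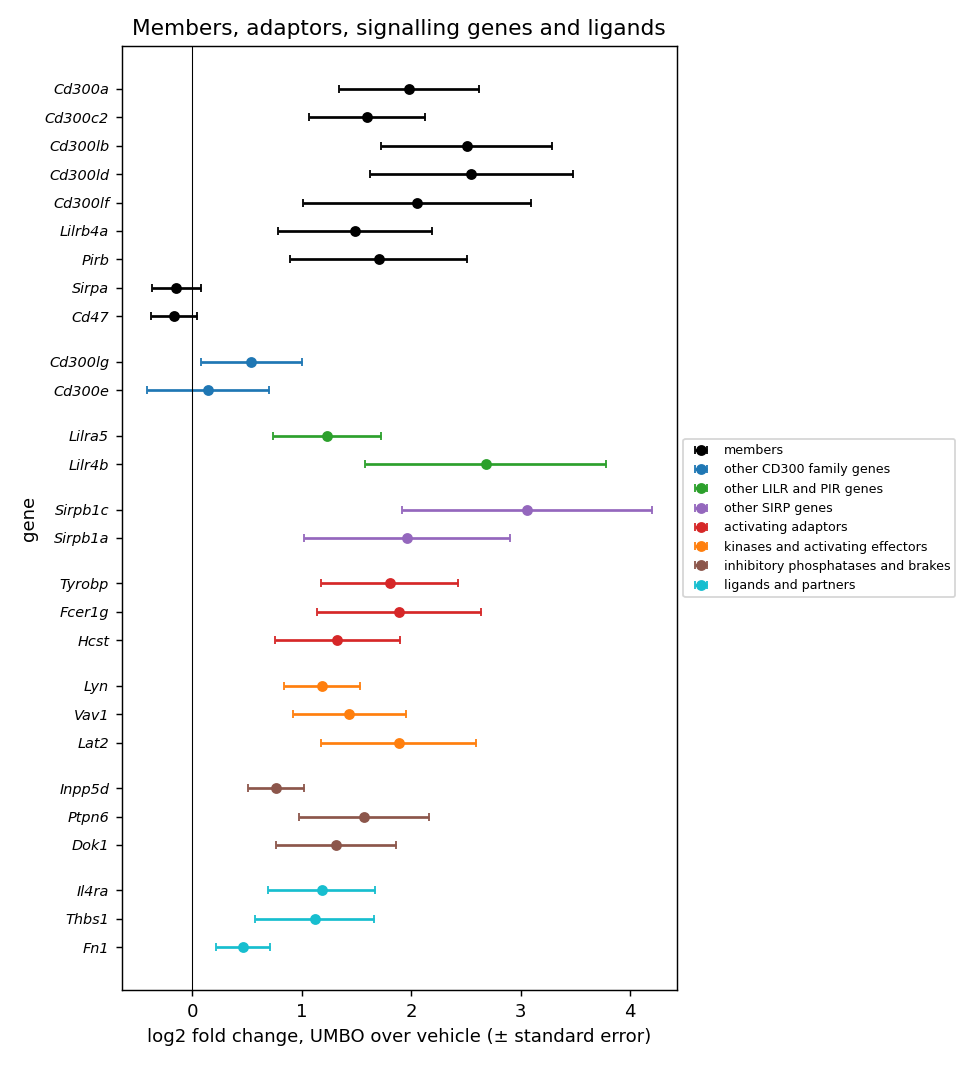
Log2 fold change of UMBO over vehicle from edgeR (± standard error) for the 9 members and for up to 3 genes of each related list with the smallest unadjusted p. Apart from Sirpa (-0.15) and Cd47 (-0.17) all genes drawn lie to the right of 0, and none of them passed the adjusted threshold. Cd300lb, Sirpb1a and Sirpb1c passed the filter on low counts mainly through the UMBO libraries, so their side of 0 was largely set by it. The listed genes with negative fold changes, Ptpn11, Omg, Rtn4, Itgav and Mag, had larger p-values and are not drawn.

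The summed markers of the cells that carry the receptors were also higher in both UMBO libraries than in any vehicle library. For the 8 pan-myeloid markers the summed level was 185 to 340 CPM with vehicle and 396 and 679 CPM with UMBO, the median log2 fold change was 1.61, and 6 of 8 had an unadjusted p under 0.05, all higher. Over all genes 5.3% were higher at that p, the share to set beside the count of each list in this paragraph. Csf1r, the growth factor receptor of microglia and macrophages, was at 99.1, 141 and 127 CPM with vehicle and at 190 and 173 CPM with UMBO, and Laptm5 at 41.9, 87.7 and 53.5 against 95.6 and 175 CPM. For Csf1r UMBO replicate 2 was thus the lower of the UMBO libraries, while for the receptors it was the higher. The 11 homeostatic microglia markers summed to 367 to 523 CPM with vehicle and to 705 and 841 CPM with UMBO, with 6 of 11 at an unadjusted p under 0.05, all higher, and a median of 0.65. The medians of these lists were 0.62 and 0.56 without UMBO replicate 2. The 10 monocyte and macrophage markers summed to 72.2 to 132 CPM with vehicle and to 134 and 458 CPM with UMBO, with a median of 2.52 and 2 of 10 at an unadjusted p under 0.05. That median rested on UMBO replicate 2 and was 0.04 without it. In the sum of that list UMBO replicate 1 lay next to vehicle replicate 2. By gene it lay lower, with a median log2 CPM relative to the vehicle mean of 0.37, against 1.28 in vehicle replicate 2. For 1 of the 10 markers both UMBO libraries were above the vehicle range, beside 11.5% of all genes. Lyz2, the most abundant of them, was at 13.7, 65.0 and 28.9 CPM with vehicle and at 60.3 and 294 CPM with UMBO. No marker of these 3 lists was at 0 in any library.

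Other cell classes differed between libraries as well. The 6 neuron markers summed to 5357 to 8304 CPM with vehicle and to 5674 and 2934 CPM with UMBO, all 6 with negative fold changes (median -0.41), none at an unadjusted p under 0.05. All 10 proliferation markers were higher at an unadjusted p under 0.05, with sums of 36.5 to 108 CPM against 114 and 465 CPM. The share over all genes was 5.3%, here and beside each count of higher markers in this paragraph. The median of the proliferation markers was 2.13 and fell to 0.85 without UMBO replicate 2. The 5 mast cell markers summed to only 0.214 to 0.445 CPM with vehicle and to 1.19 and 2.15 CPM with UMBO, and Mrgprb1 was at 0 in 4 libraries. The 3 of them that were tested (Cpa3, Mcpt4 and Tpsb2) reached the read number of the filter in 0 or 1 vehicle libraries and in both UMBO libraries, so a higher value in the test was largely set by the filter and no count is read from it. Neutrophil markers (5 of 9 tested, 1 of them, Retnlg, mainly through the UMBO libraries, median 1.06, 2 higher at an unadjusted p under 0.05) summed to 9.66 to 16.9 against 22.3 and 30.7 CPM, most of it Csf3r, which microglia also express, and the defining marker Ly6g had 0 to 3 reads. Endothelial markers (median 0.70, 4 of 5 higher at an unadjusted p under 0.05) summed to 106 to 152 CPM against 181 and 216 CPM, and red blood cell markers (median 0.62, 0 of 5) to 71.8 to 165 CPM against 181 and 217 CPM. Among lymphocytes, T cell markers (median 0.83, 0 of 6) summed to 16.7 to 26.9 against 9.75 and 33.7 CPM, and B cell markers (median 0.84, 1 of 5, higher) to 1.30 to 3.15 against 2.23 and 4.98 CPM. The most abundant T cell marker, Cd4, had a negative log2 fold change (-0.90) and the other 5 positive ones, so sum and median weigh different genes. Dendritic cell markers (median 0.63, 0 of 5) summed to 21.4 to 28.4 against 21.1 and 17.6 CPM. Of these 5, 3 had positive and 2 negative fold changes, among the latter the most abundant, Flt3 (-0.64). Leaving out UMBO replicate 2 turned the list medians to -0.89 for T cells, -0.16 for B cells and -0.36 for dendritic cells, and that of the neutrophil list was 0.32. Astrocyte (0.06) and oligodendrocyte (-0.04) medians were near 0, with 0 of 5 in either list. The part of these cell classes in the values of the 9 genes was not tested.

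Set against the pan-myeloid sum of the same library, the receptors showed smaller differences between the groups. The UMBO mean minus the vehicle mean of log2 (gene / pan-myeloid sum) was 1.42 for Cd300ld, 1.31 for Cd300lb, 0.94 for Cd300lf, 0.68 for Cd300a, 0.52 for Cd300c2 and 0.39 each for Lilrb4a and Pirb. In 6 of these 7 the groups overlapped. They did not for Cd300lb, which rests on 8 to 99 reads per library. Exact permutation p-values (2-sided, smallest possible 0.1) for the 9 ratios lay between 0.2 and 0.6 and the Benjamini-Hochberg adjusted values over the 9 between 0.45 and 0.6. For Sirpa the same difference was -1.21 and for Cd47 -1.24, with both UMBO libraries below every vehicle library (exact permutation p = 0.2 for each). The pan-myeloid sum itself was at 185 to 340 CPM with vehicle and at 396 and 679 CPM with UMBO. Any gene with steady CPM therefore falls in this ratio. For Sirpa and Cd47, which neurons also carry, it is no measure of a level per myeloid cell.

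The denominator mattered for the size. The median of the difference over the 7 receptors was 0.68 with the pan-myeloid sum, 1.16 with Csf1r alone, 0.94 with the homeostatic microglia sum and 0.42 with the monocyte and macrophage sum. Without UMBO replicate 2 the difference turned to -0.43 for Pirb, -0.07 for Lilrb4a and -0.02 for Cd300lf. Cd300lb (0.70) and Cd300ld (0.63) kept the largest differences without that library.

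**Figure D4:**
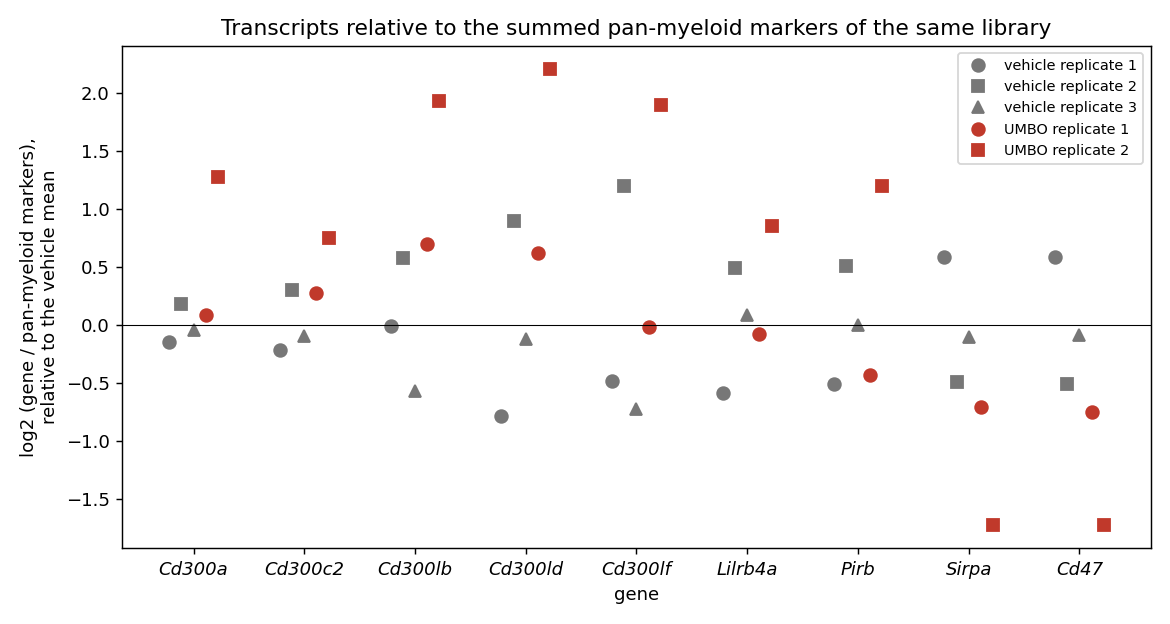
Log2 of each gene's counts over the summed counts of the 8 pan-myeloid markers in the same library, drawn relative to the vehicle mean (0), for 3 vehicle (grey) and 2 UMBO (red) libraries. The groups overlap for 6 of the 7 receptors from Cd300a to Pirb, the exception being the rarely read Cd300lb, and both UMBO points lie below all grey points for Sirpa and Cd47. The pan-myeloid sum was itself higher in both UMBO libraries, which lowers this ratio for any gene with steady CPM.

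UMBO replicate 2 was the highest library for all 7 receptors, while UMBO replicate 1 and vehicle replicate 2 changed places among them. Centred log2 CPM of single receptors differed from the mean profile of the 7 by a root mean square of 0.21 (Cd300a) to 0.44 (Cd300lf). Among 16435 genes with a mean of at least 1 CPM, those closest to the mean profile were Anxa2 (0.05), a phospholipid-binding annexin, Lat2 (0.05), Ncf4 (0.06), a subunit of the phagocyte oxidase, Fcer1g (0.06) and Gpr65 (0.07), an acid-sensing receptor. These genes lay closer to that mean than any of the 7 receptors, although the receptors themselves make up the mean. How many other genes lay as close as the receptors was not counted. Anxa2 was at 13.6, 43.2 and 18.1 CPM with vehicle and at 37.5 and 160 CPM with UMBO, in the order that most of the receptors showed. Closest to Sirpa were Dcaf4 (0.01), Fbxw2 (0.03) and Exoc8 (0.03), and closest to Cd47 were Dcaf4 (0.02), Fbxw2 (0.02) and Ppp2ca (0.02), so that the first 2 names are common to receptor and ligand. These are descriptions over 5 libraries that share depth and composition, with no test.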

How the data were processed

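Bulk RNA of the right hemisphere was sequenced on a NovaSeq instrument. Per the submitters' notes and the methods, the authors mapped reads with STAR 2.7.2a to GRCm38 and deposited raw read counts per Ensembl gene, 1 table for each library, without normalization. The annotation release and the use of strand are not given in the sources used here. Symbols, positions and exon lengths were taken from GENCODE M21 on the same build. The study states 3 mice per group, and 2 UMBO libraries were analysed here. Libraries are labelled as separate samples of a group, so p-values measure the spread between these samples.

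After TMM scaling and filterByExpr (minimum count 10), genes were tested in R 4.3.3 by glmQLFTest of edgeR 4.0.16, the quasi-likelihood method, at a threshold of 0.05. The standard error is the size of the log2 fold change divided by the square root of F. Log2 CPM used a prior count of 2. DESeq2 1.42.0, other scalings, other filters, the replicate number as a block and leaving out each library were the alternatives. The scripts were tested on simulated data. Total counts of 59736771 to 86164159 limit counting error only.

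The members, related lists and marker lists were chosen with earlier results of these data known. The genes named are all members, the 3 of each related list with the smallest unadjusted p, the 1 or 2 most abundant of each marker list where values are given, and the genes closest in profile. Genes outside this rule that are given with values or counts (Ptpn11, Omg, Rtn4, Itgav, Mag, Havcr1, Ly6g, Retnlg, the mast cell markers and the untested Cd300 genes) were chosen after their values were seen. Lilrb4b was matched as Lilr4b.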

Additional observations from a re-analysis of the deposited data

How the results depend on the processing

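Beside the main count of 0 genes at an adjusted p under 0.05, the DESeq2 Wald test called 40 genes and edgeR with the replicate number as a block called 2337. Genes at an unadjusted p under 0.05 numbered 4100 without a filter on low counts, 2738 with DESeq2 and 6134 with the block, against 1738, and those higher with UMBO numbered 2954, 1970 and 3396, against 1251. Members at an unadjusted p under 0.05 numbered 7 without a filter (beside 10.1% of all genes), with DESeq2 (6.77%) and with the block (26%). They numbered 2 with a filter of at least 1 CPM in 2 libraries (7.11%), under which Cd300lb and Cd300ld were not tested. With the block 7 members passed the adjusted threshold, beside 9.91% of all genes. Labels do not say that equal replicate numbers mark a shared day or litter and only 2 numbers are shared, so the block was not used as the main design. Deviations from the group means had correlations of 0.453 and 0.760 at these numbers. With 2 UMBO libraries the deviations of one mirror those of the other, so the correlations are not separate checks and cannot decide on a pairing. The median of the other LILR and PIR genes was 2.74 under the filter of 1 CPM. The cause of these changes was not tested.

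Leaving out each library in turn gave 0 to 4543 genes called, 296 to 10165 genes at an unadjusted p under 0.05 and 194 to 5310 of them higher. It gave 0 to 5 members called, 0 to 7 members at an unadjusted p under 0.05 and 3 to 7 members whose groups did not overlap. The settings with 7 were without vehicle replicate 2, where 30.8% of all genes had UMBO above the vehicle range, and without UMBO replicate 1, where 42.5% did, against 11.5% with all libraries. The lowest counts of genes came without vehicle replicate 1 and the highest without UMBO replicate 1. The median over the members ranged from 0.39 to 2.43 and over the 7 receptors from 0.68 to 2.62, both lowest without UMBO replicate 2. List medians ranged from 0.12 to 0.71 for other CD300 genes, 0.57 to 3.12 for other LILR and PIR genes, 1.25 to 3.96 for other SIRP genes, 0.43 to 2.50 for adaptors, 0.52 to 1.79 for kinases, 0.31 to 1.16 for inhibitory phosphatases and -0.063 to 0.57 for ligands. With all libraries both tested SIRP genes passed the filter on low counts mainly through the UMBO libraries. A positive median of that list was thus largely set by the filter and is given as a value only. Marker list medians ranged from 0.62 to 2.12 for pan-myeloid, 0.34 to 0.67 for homeostatic microglia, 0.039 to 3.53 for monocyte and macrophage, 0.32 to 2.74 for neutrophil and 0.85 to 2.78 for proliferation markers. The sign of the median turned for T cell (-0.89 to 1.56), B cell (-0.16 to 1.47), dendritic cell (-0.36 to 1.55, and -0.35 with the filter of 1 CPM), astrocyte (-0.62 to 0.29) and oligodendrocyte markers (-0.20 to 0.025). The UMBO minus vehicle difference of the log2 ratio of Sirpa to Cd47 lay between -0.0016 (without UMBO replicate 1) and 0.044, and the median of that difference for the 7 receptors over the pan-myeloid sum between 0.089 (without UMBO replicate 2) and 1.28. For single genes the sign turned in at least 1 of these fits for Cd300e (-0.66 to 0.62, and -0.10 without vehicle replicate 1), Thbs1 (-0.12 to 1.75), Vcan (-0.28 to 0.26, and -0.02 and -0.07 without vehicle replicates 1 and 2), Pax5 (-0.74 to 1.10), Mbp (-0.20 to 0.086), Slc1a2 (-1.72 to 0.012) and Flt1 (-0.013 to 0.23), and for the pan-myeloid ratios of Pirb (-0.43 to 1.20), Lilrb4a (-0.074 to 0.86) and Cd300lf (-0.017 to 1.90). Pax5 was also at 1.10 with the block and Mbp at 0.071 with library size only. With 3 libraries against 2, depth limits only Cd300lb, Cd300ld and the rarer relatives, and the number of mice limits the rest.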
